A study of Mus musculus with 6 samples.

Results

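The circadian clock genes described here are 10 members picked by symbol from a table of 22030 genes: Clock, the period genes Per1, Per2 and Per3, the cryptochrome genes Cry1 and Cry2, the REV-ERB genes Nr1d1 and Nr1d2, and the output regulators Dbp and Tef. All 10 were found, each under a single identifier, and all 10 were among the 13067 genes with enough counts to be tested. Their messenger RNA was measured in 6 RNA-seq libraries from mouse mesenchymal stem cells of the bone marrow, stromal progenitors of bone, fat and cartilage. The 3 control libraries are titled siNC with a wild-type genotype label, and the 3 others carry the genotype label RIOK3 knockdown. RIOK3 is an atypical kinase of the RIO family. The design text speaks of stable knockdown lines obtained with lentivirus and once of a knockout, whereas the titles carry the prefix si, so the agent is not settled by the labels. The sources used here give no strain, medium, synchronisation of the cells or hour of harvest. Whether replicate libraries were separate cultures is not stated in the labels. The p-values therefore rest on the spread among these libraries alone, and that spread may be technical.

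The mammalian clock is a feedback loop of transcription that runs in most cells, cultured stromal cells included. CLOCK and its partner BMAL1 (gene Arntl) bind E-box sequences and switch on the Per and Cry genes, whose proteins return to the nucleus and shut that activity off. The same activator pair drives the REV-ERB genes, whose products repress Arntl in competition with the ROR receptors, and the genes of PAR bZIP factors such as DBP and TEF, which act through D-box sequences. A population sampled at a single time gives a level of each gene, not a rhythm, and in bulk RNA fewer cells of a type and less RNA per cell cannot be told apart.

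The sequences just upstream of the REV-ERB genes and Per3 are shown because these genes hold the clearest fall, its paralogue and the rise described below. They are the 250 bases before the start site from RefSeq on GRCm38.p6, an earlier build than the one the submitters name. Capitals mark matches to the motifs searched. RefSeq promoter entries were matched for 9 of the 10 members, with 13 start sites; Per2 had no entry.
Nr1d1, chr11:98775378-98775627, minus strand: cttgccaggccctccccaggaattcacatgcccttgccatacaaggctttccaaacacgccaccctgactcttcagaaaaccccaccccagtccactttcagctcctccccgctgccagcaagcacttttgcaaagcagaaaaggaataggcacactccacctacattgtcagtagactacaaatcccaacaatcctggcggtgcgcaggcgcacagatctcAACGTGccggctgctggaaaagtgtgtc
Nr1d2, chr14:18239107-18239356, minus strand: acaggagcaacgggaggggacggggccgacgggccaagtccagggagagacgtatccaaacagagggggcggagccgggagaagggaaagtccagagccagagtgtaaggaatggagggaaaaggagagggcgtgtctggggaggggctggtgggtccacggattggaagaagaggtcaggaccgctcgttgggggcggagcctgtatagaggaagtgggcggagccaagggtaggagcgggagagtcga
Per3, chr4:151044666-151044915, minus strand: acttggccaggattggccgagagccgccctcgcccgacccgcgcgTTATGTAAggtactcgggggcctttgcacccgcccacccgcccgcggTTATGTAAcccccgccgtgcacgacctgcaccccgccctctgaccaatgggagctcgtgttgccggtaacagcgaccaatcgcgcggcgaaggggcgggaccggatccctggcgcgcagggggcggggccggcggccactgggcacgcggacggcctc

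The windows searched reached from 250 bases before to 50 bases after each start, on both strands. The E-box CACGTG was found at 4 of the 13 member start sites, in Per1, Cry1 and Tef, and in 7.15% of 32851 such windows over all genes. The related element CACGTT, which reads AACGTG on the opposite strand, was found in Cry1, Cry2 and Nr1d1, against 4.68% of all windows. The D-box TTATGTAA was found at 2 places in Per3 and in no other member, against 0.938% of all windows. The D-box TTACGTAA, the ROR response element (2.46% of all windows) and the cyclic AMP element TGACGTCA matched in no member window. A match describes letters only.

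Libraries held between 28327612 and 32569544 counts. Riok3 itself was lower in the knockdown, at 33.6 ± 3.12 against 157 ± 31.1 CPM (SD, n = 3 each). Of the 14 stromal markers examined, 12 reached at least 1 CPM in all 6 libraries. The exceptions were Thy1, at 0.547 to 1.21 CPM, and Lepr, a marker of marrow stroma, at 0.438 CPM or less. Among the 12, Eng lay at 1.31 to 3.79 CPM and Nt5e at 1.41 to 3.56 CPM. Stromal marker levels moved in both directions under knockdown. Col1a1 rose from 17.6 ± 0.633 to 46.0 ± 1.15 CPM, and Vcam1 fell from 56.9 ± 3.55 to 20.9 ± 1.02 CPM. Of 10 haematopoietic markers 7 had values; their sum was 26.6 to 43.2 CPM in control and 46.6 to 51.7 CPM in the knockdown libraries, almost all of it Cd68, while Ptprc stayed at or below 0.101 CPM; their part in the results was not tested. Endothelial markers summed to between 3.13 and 8.79 CPM. Control replicate 2 stands apart from the other controls in several clock genes below. Each member's result, and each count over a list of other clock genes, is given with and without it. Across 13043 tested genes the log2 fold change rose with transcript GC content (Spearman 0.70, Pearson 0.68, a description across genes, which are not replicates). Each member's GC content and its value with that trend removed are therefore given beside its result. The trend differs between the groups, so a technical effect and an effect of the knockdown cannot be told apart in it. Its removal may also take away change that belongs to the knockdown, so neither value is the corrected one. For Riok3, of 43.9% GC, the log2 fold change was −2.23, and −1.20 with the trend removed.

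Of the 10 members, Nr1d2 and Clock fell and Per3 rose in the knockdown, and the other 7 did not pass the test (quasi-likelihood test of edgeR, Benjamini-Hochberg adjustment across the 13067 genes, threshold 0.05). Over all tested genes 48% were called, 21.1% higher and 26.8% lower. The members' 3 of 10 is a smaller share than this, but their share exceeds that of all genes in some of the fits below. All 3 changed at least 2-fold, and 25.9% of all tested genes were called with a change of that size. Levels of the 2 groups were separate for 6 of the 10 members, against 62.1% of all tested genes. The members' median log2 fold change was −0.06, against 0.01 over all tested genes. Without control replicate 2, 7 members were called, 2 higher and 5 lower, where 71.6% of all genes were called. The whole-table shares were then 35.1% higher and 36.5% lower. When each library's GC trend was removed 4 were called, Per3 higher and Nr1d2, Nr1d1 and Per1 lower, where 31.6% of all genes were called, 16.3% higher and 15.2% lower.

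Over the other settings the number of members called ranged from 2 to 9, given here with the share of all tested genes called. DESeq2 called 4 (52.4% of all genes), limma-voom 6 (72.5%), relative-log-expression factors 3 (47.8%), upper-quartile factors 5 (51.3%) and library totals alone 5 (54.3%). Without a count filter 3 were called (28.5%), and a filter of 5 CPM in 3 libraries gave 4 (52.8%), with Per2 not tested. Without control replicate 1 or 3 the count was 3 each (38.4% and 39.6%), and without knockdown replicate 1, 2 or 3 it was 2, 3 and 2 (32.7%, 32.4% and 34.9%). A replicate block gave 3 (43%), and the block with the GC trend removed gave 4 (23.8%). Removal of GC content with length gave 5 (39.6%), of GC content with adenine content and length 6 (34.4%), and of the mean GC content of coding transcripts 4 (31.7%). The GC trend and control replicate 2 left out together gave 9 (61.5%). On log2(FPKM + 1) and log2(FPKM + 0.1), without Per2 and Per3, 4 were called (61.2% and 60.6%), and on unfiltered log2(FPKM + 1) 5 (30.6%). Nr1d2 was the one member called in all of these.

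**Figure D1:**
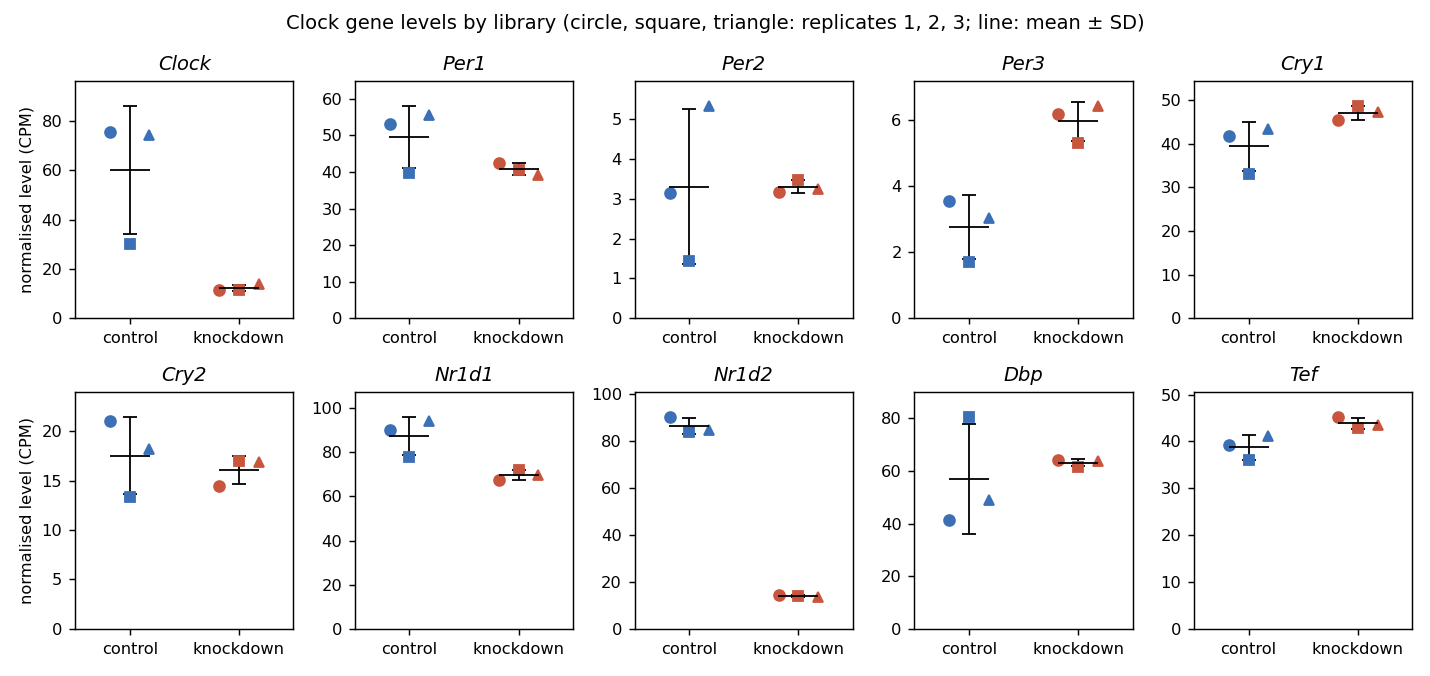
Normalised level (CPM with TMM scaling, linear axis from 0) of each clock gene in the 3 control and the 3 knockdown libraries, with the group mean and SD. Nr1d2 and Clock are lower and Per3 higher in every knockdown library, and the square of control replicate 2 lies apart from the other controls for Clock and Dbp.

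The activator gene Clock, which encodes the DNA-binding partner of BMAL1, had 75.7, 30.3 and 74.3 CPM in control replicates 1, 2 and 3 and 11.4, 11.4 and 13.8 CPM in knockdown replicates 1, 2 and 3. The groups did not overlap, but control replicate 2 lay nearer to the knockdown libraries than to the other controls. Means were 60.1 ± 25.8 and 12.2 ± 1.35 CPM, 4.92-fold lower under knockdown (edgeR log2 fold change −2.30, SE 0.351, adjusted p = 0.00191). Without control replicate 2 the change was −2.62. The Clock transcript is poor in GC, at 40.9%, and over its 3 coding transcripts the content ranged from 40.9 to 42.2%. Removing the GC trend left a value that did not pass (adjusted p = 0.208, log2 fold change −0.46 with SE 0.252). It was −0.19 when length was removed as well, and with control replicate 2 left out as well as the GC trend it was −0.69 and past the threshold (adjusted p = 5.73e-07).

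The partner gene Arntl, which encodes BMAL1, was at 18.1, 12.2 and 16.0 CPM in the controls and 6.81, 8.08 and 8.53 CPM in the knockdown. It was 1.98-fold lower (adjusted p = 0.00495, log2 fold change −0.98 with SE 0.188), and at −0.80 with the GC trend removed (adjusted p = 0.00817). It passed in 21 of 23 alternative settings, and with GC content, adenine content and length all removed it was at −0.38 without passing (adjusted p = 0.0979). Npas2, which can stand in for CLOCK, was below the count filter, with at most 0.369 CPM in any library. The BMAL1 paralogue gene Arntl2 had a log2 fold change of −0.12 (adjusted p = 0.801).

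Among the repressors of the loop, the period genes differed from each other. Per1, a rapid responder to hormones and serum, was at 53.1, 39.8 and 55.5 CPM in control and 42.5, 40.7 and 39.1 CPM in the knockdown. The groups overlapped, since control replicate 2 lay within the knockdown range, and the change did not pass (log2 fold change −0.28, SE 0.158, adjusted p = 0.184). Per1 has 59.4% GC, and with the GC trend removed it was called lower (−0.93, adjusted p = 0.00706). It was also called lower without control replicate 2 (−0.41, adjusted p = 8.02e-05).

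Per2, a limiting component of the repressor complex, was scarce, with 40 to 158 counts per library. Its level was 3.16, 1.44 and 5.32 CPM in the controls and 3.17, 3.49 and 3.25 CPM in the knockdown. The controls spread on both sides of the knockdown libraries, and the log2 fold change was close to 0 with a large error (SE 0.417, adjusted p = 0.995). Neither leaving out control replicate 2 (−0.36, adjusted p = 0.144) nor removing the GC trend of its 54.3% GC transcript (−0.38, adjusted p = 0.511) made it pass.

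Per3, the least essential period gene for rhythm itself, had 3.56, 1.69 and 3.03 CPM in control and 6.19, 5.29 and 6.41 CPM in the knockdown. Every knockdown library lay above every control, and the means of 2.76 ± 0.964 and 5.96 ± 0.593 CPM differed 2.16-fold (log2 fold change 1.11, SE 0.278, adjusted p = 0.0149). Per3 has 52.4% GC and was still called higher with the GC trend removed (0.87, adjusted p = 0.0413), as it was without control replicate 2 (0.85, adjusted p = 0.000277). Counts were low, at 47 to 106 in the controls and 176 to 199 in the knockdown. The call was lost without knockdown replicate 1 (adjusted p = 0.0514) or knockdown replicate 3 (adjusted p = 0.0519).

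The cryptochromes, which carry most of the repressor's strength, did not pass in either case. Cry1 was at 41.8, 33.0 and 43.4 CPM in control and 45.4, 48.6 and 47.2 CPM in the knockdown. The groups did not overlap, yet the log2 fold change of 0.26 (SE 0.144) had an adjusted p = 0.182. Cry1 was called higher with upper-quartile factors (0.46) and with library totals alone (0.50). These scalings moved the median of all tested genes to 0.21 and 0.26. For Cry1, of 51.6% GC, the value was 0.09 with the GC trend removed (adjusted p = 0.588) and 0.14 without control replicate 2 (adjusted p = 0.0838). Cry2 was at 21.0, 13.3 and 18.2 CPM in control and 14.4, 16.9 and 16.9 CPM in the knockdown, which overlap (adjusted p = 0.621, log2 fold change −0.12 with SE 0.192). It was called lower without control replicate 2 (−0.28, adjusted p = 0.0246), and was at −0.60 with the GC trend of its 55.6% GC transcript removed, without passing (adjusted p = 0.0584).

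The largest change of any member was that of Nr1d2, the gene of REV-ERB beta. It had 2685, 2337 and 2507 counts in the controls and 471, 466 and 423 counts in the knockdown, or 90.1, 84.0 and 84.5 against 14.6, 14.0 and 13.6 CPM. The spread within each group was small beside the gap between them. Means of 86.2 ± 3.41 and 14.1 ± 0.515 CPM gave a 6.12-fold lower level (log2 fold change −2.61, SE 0.122, adjusted p = 2.47e-05). Changes that were called lower and at least 4-fold were found for 8.64% of all tested genes, Clock and Nr1d2 among them. Nr1d2 passed as lower in all 23 alternative settings, with log2 fold changes between −2.63 and −0.94, and was at −2.63 without control replicate 2. The smaller values came with the GC trend removed, which gave −1.06 (SE 0.140, adjusted p = 0.00214) for the transcript of 41.8% GC used. The 2 coding transcripts of Nr1d2 range from 41.8 to 51.8% GC, and with the mean GC content of coding transcripts in its place the value was −2.02 (adjusted p = 0.000198).

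Its paralogue Nr1d1, which encodes REV-ERB alpha, was at 90.1, 77.7 and 94.1 CPM in the controls and 67.6, 71.9 and 69.5 CPM in the knockdown. The groups did not overlap, but the 1.25-fold difference did not pass (log2 fold change −0.32, SE 0.126, adjusted p = 0.0678). DESeq2 (adjusted p = 0.0309) and the fit without control replicate 2 (adjusted p = 3.75e-05) called it lower, as did 10 of the 23 alternative settings in all. It did not pass with upper-quartile factors (−0.12), library totals alone (−0.08) or log2(FPKM + 1) (−0.04). With the GC trend removed Nr1d1, of 56.8% GC, was called lower at −0.86 (adjusted p = 0.00307). In the GENCODE M21 annotation 8.55% of its exon bases overlap Thra, the thyroid hormone receptor alpha gene on the opposite strand. Thra rose 2.61-fold, from 18.8 ± 2.86 to 49.0 ± 2.44 CPM (adjusted p = 0.000478). No source used here gives the strand setting of the counting, so reads from the shared stretch cannot be assigned, and their part in the Nr1d1 value was not tested.

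In the arm opposed to the REV-ERBs, Rora had 27.5, 11.5 and 27.0 CPM in the controls and 3.51, 3.88 and 4.15 CPM in the knockdown, with control replicate 2 again the lowest control. It fell 5.72-fold (adjusted p = 0.0012, log2 fold change −2.51 with SE 0.344). Rora was at −0.68 with the GC trend of its 40.9% GC transcript removed and did not pass (adjusted p = 0.0749). With the mean GC content of coding transcripts it was at −2.35, and without control replicate 2 at −2.82. Rorb stayed at or below 1.08 CPM in every library and did not pass.

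The PAR bZIP output genes did not pass. Dbp, an output that follows CLOCK and BMAL1 closely in many tissues, was at 41.2, 80.4 and 49.1 CPM in control and 64.0, 61.6 and 63.9 CPM in the knockdown. Control replicate 2 lay above all knockdown libraries and the other controls below them, so the log2 fold change of 0.15 (SE 0.245, adjusted p = 0.64) averages controls on both sides. Without control replicate 2 Dbp was called higher (0.48, adjusted p = 5.04e-05). With the GC trend of its 61.6% GC transcript removed it was at −0.53 without passing, and with both changes together it was called lower (−0.26, adjusted p = 0.00382). Of its exon bases 18% overlap Sphk2 on the opposite strand, which rose from 9.15 ± 1.04 to 17.8 ± 1.18 CPM (adjusted p = 0.00168). Sphk2 was at 0.34 with the GC trend removed and did not pass (adjusted p = 0.123). The part of shared reads in the Dbp value was not tested.

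Tef was at 39.2, 36.0 and 41.2 CPM in control and 45.2, 42.9 and 43.4 CPM in the knockdown. The groups did not overlap, but differed by only 1.13-fold (adjusted p = 0.262, log2 fold change 0.18 with SE 0.120). It was called higher with upper-quartile factors (0.37, adjusted p = 0.0287), library totals (0.42, adjusted p = 0.0266) and all 3 FPKM settings. The sign turned with the GC trend of its 53.8% GC transcript removed (−0.17), without passing, and without control replicate 2 the value was 0.12 (adjusted p = 0.138). The remaining PAR bZIP gene, Hlf, was low and rose from 1.06 ± 0.160 to 2.30 ± 0.520 CPM (adjusted p = 0.0104, log2 fold change 1.11). Nfil3, which encodes a repressor acting on the same D-boxes, rose from 12.6 ± 2.17 to 23.1 ± 0.463 CPM (adjusted p = 0.00405, log2 fold change 0.87). Hlf was called higher in all 20 alternatives that tested it. Nfil3 was at 0.47 with the GC trend removed, just short of the threshold (adjusted p = 0.0541).

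**Figure D2:**
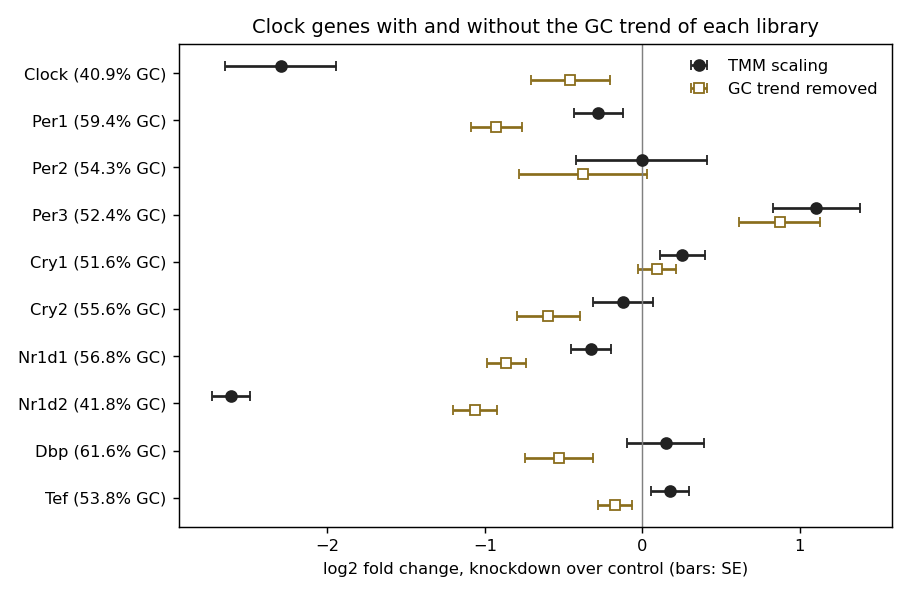
Log2 fold change (knockdown over control, bars are SE) of the 10 clock genes under TMM scaling (filled circles) and with each library's trend on transcript GC content removed (open squares). Clock moves from −2.30 to −0.46 and Nr1d2 from −2.61 to −1.06, Per3 stays higher, and Dbp and Tef change sign.

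Over the 10 members the log2 fold change had a Pearson correlation of 0.76 and a Spearman correlation of 0.12 with transcript GC content. All points share the same 6 libraries, and Clock and Nr1d2, of 40.9 and 41.8% GC, lie apart from the other 8, of 51.6 to 61.6% GC. Within those 8 members the uncorrected log2 fold changes lay between −0.32 and 1.11.

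Levels per transcript length, in the FPKM the authors deposited with 2 decimals, placed Nr1d1 highest in both groups and Per2 and Per3 lowest. In the controls the order was Nr1d1 (25.1 ± 2.93 FPKM), Dbp (16.7 ± 5.84), Nr1d2 (14.1 ± 0.568), Cry1 (10.4 ± 1.65), Per1 (7.76 ± 1.46), Tef (4.36 ± 0.390), Clock (3.88 ± 1.70), Cry2 (2.45 ± 0.560), Per2 (0.50 ± 0.306) and Per3 (0.253 ± 0.0907). Neighbours whose libraries overlapped were Nr1d1 and Dbp, Dbp and Nr1d2, Cry1 and Per1, Tef and Clock, Clock and Cry2, and Per2 and Per3. In the knockdown Nr1d2 (2.78 ± 0.0808 FPKM) stood sixth, beside and overlapping Cry2 (2.72 ± 0.260), and Clock (0.95 ± 0.113) stood eighth. The only other overlapping neighbours there were Per3 (0.663 ± 0.0666) and Per2 (0.603 ± 0.0351).

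Ratios of FPKM within a library do not depend on how libraries are scaled, although they keep any effect of sequence composition. The 6 pairs were chosen after the values were seen. Nr1d1 exceeded Nr1d2 by 1.76, 1.63 and 1.96 times in control replicates 1, 2 and 3 and by 8.12, 9.02 and 8.96 times in the knockdown replicates. Control replicate 2 does not stand apart in this ratio. Per1 exceeded Per3 by 25.8, 40.8 and 30.7 times in control and 11.8, 13.1 and 10.4 times in the knockdown. Arntl was below Clock in the controls, at 0.437, 0.733 and 0.393 of it, and above it in the knockdown, at 1.09, 1.29 and 1.13 times. The Cry1 to Cry2 ratio went from between 3.75 and 4.68 to between 5.29 and 5.96. For these 4 pairs the groups did not overlap, and the two-sided exact permutation test gave p = 0.1, the smallest that 3 against 3 allows (adjusted p = 0.15 over the 6 pairs). Per1 to Per2 and Dbp to Tef overlapped (exact permutation p = 0.4 and 1). After removal of the GC trend the REV-ERB genes fell by similar amounts, −0.86 and −1.06, when the transcript of 41.8% GC stood for Nr1d2. They differed, at −0.85 and −2.02, when the mean over coding transcripts was used.

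**Figure D3:**
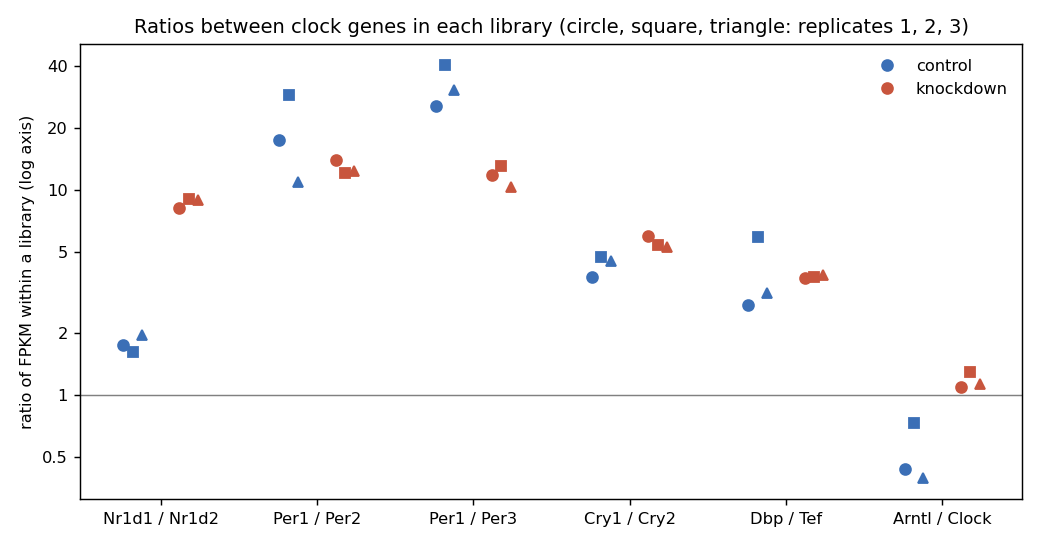
Ratio of FPKM between pairs of clock genes within each library (log axis, blue control, red knockdown, marker shape gives the replicate). The Nr1d1 to Nr1d2 ratio lies between 1.63 and 1.96 in control and between 8.12 and 9.02 in the knockdown, and the Arntl to Clock ratio crosses 1.

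Beyond the members, 55 genes of the wider clock were examined in 4 lists, of which 53 were tested. Of these 9 rose and 17 fell, and the median log2 fold change was −0.18. That is 26 of 53, near the 48% of all tested genes called. Without control replicate 2 the calls numbered 44 of 54, with 15 higher and 29 lower, where 71.6% of all genes were called. With the GC trend removed they numbered 26, with 11 higher and 15 lower, where 31.6% of all genes were called. Of the first 26 genes, 16 then kept their call and direction, 7 lost it, and Tipin, Tbl1xr1 and Nampt were called in the opposite direction. A further 7 were called only with it removed. Called in the same direction under every alternative that tested them were 11 genes. Hlf, Ciart and Btrc rose, and those that fell included Fbxw7, Sfpq, Sirt1, Noct, Fkbp5, Klf9 and Lonrf3. The share of all tested genes for these 11, and for the kept, lost, opposite and added calls, was not computed.

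Transcription factors of the loops rose in 4 and fell in 3 of 12 tested cases, with a median of 0.26, beside 21.1% higher and 26.8% lower over all tested genes. Removing the GC trend gave 5 higher and 1 lower, where 16.3% of all genes were called higher and 15.2% lower. Beside 35.1% higher and 36.5% lower over all genes, leaving out control replicate 2 gave 5 higher and 4 lower. Besides Arntl, Rora, Nfil3 and Hlf these included Ciart, a repressor of CLOCK and BMAL1, which rose from 37.4 ± 6.47 to 64.3 ± 2.35 CPM (adjusted p = 0.00554, log2 fold change 0.78). Bhlhe40, whose product competes for E-boxes, rose from 159 ± 18.1 to 208 ± 4.83 CPM (0.39, adjusted p = 0.0406), and its paralogue Bhlhe41 was at 0.41 without passing (adjusted p = 0.0946). Bhlhe41 was called higher with the GC trend removed (0.77, adjusted p = 0.00507) and without control replicate 2 (0.25, adjusted p = 0.00722). Tipin, a replication fork factor that binds the Timeless protein, fell by 0.80 on the log2 scale. It was called higher, at 0.97, with the GC trend removed, but was at −0.21 with the mean GC content of coding transcripts.

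Genes of the list of kinases and ubiquitin ligases of clock proteins rose in 3 and fell in 3 of 17 tested cases, with a median of −0.09. These 6 of 17 lie below the 48% of all tested genes called. With the GC trend removed 4 were higher and 5 lower, where 31.6% of all genes were called. Without control replicate 2, 5 were higher and 9 lower of 18 tested, where 35.1% of all genes were called higher and 36.5% lower. Cul1, a scaffold of ubiquitin ligase complexes, and Fbxw7, an F-box subunit, fell by 1.75 and 1.58 on the log2 scale. With the GC trend removed they were at −0.72 and −1.06 and still passed. Cul1 was at −0.19 without passing when GC content, adenine content and length were all removed (adjusted p = 0.143). Btrc, whose product recognises phosphorylated PER, rose from 14.0 ± 1.11 to 27.0 ± 1.24 CPM (0.95, adjusted p = 0.00109). The PER kinase gene Csnk1d was at 0.45 and passed (adjusted p = 0.0301), while Csnk1e, at −0.20, did not (adjusted p = 0.198). Without the GC trend these were at 0.08 and −0.43, and only Csnk1e passed.

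Cofactors of clock complexes fell in 4 of 12 cases and rose in none, with a median of −0.70. Called lower over all tested genes were 26.8%. The fit with the GC trend removed called 1 higher and 2 lower, where 16.3% of all genes were called higher and 15.2% lower. With control replicate 2 left out, 3 were higher and 8 lower, where 35.1% of all genes were called higher and 36.5% lower. The 4 were Sirt1, a deacetylase that acts on BMAL1 and PER2 (from 11.4 ± 5.80 to 1.30 ± 0.435 CPM, adjusted p = 0.0019), the demethylase gene Kdm5a, the PER complex gene Sfpq and the corepressor gene Tbl1xr1. Sirt1 was at −3.14 and Kdm5a at −1.80 on the log2 scale, and without control replicate 2, which lay far below the other controls for both, at −3.48 and −2.14. Tbl1xr1 was called higher once the GC trend was removed, at 0.73, and Kdm5a, then at −0.55, did not pass. Nono, the partner of Sfpq, was at 2407 ± 41.6 and 2428 ± 24.4 CPM (log2 fold change 0.01, adjusted p = 0.936).

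Output genes that cycle in many tissues fell in 7 and rose in 2 of 12 cases, with a median of −0.88, beside 26.8% lower and 21.1% higher over all tested genes. Removal of the GC trend left 7 lower and 1 higher, beside 15.2% lower and 16.3% higher over all genes. The fit without control replicate 2 called 8 lower and 2 higher, beside 36.5% lower and 35.1% higher over all genes. Klf9, a Krüppel-like factor gene that glucocorticoids induce, fell 10.02-fold, from 154, 88.1 and 127 CPM to 11.3, 12.8 and 12.7 CPM (log2 fold change −3.33, SE 0.229, adjusted p = 7.10e-05). Its value was −2.95 with the GC trend removed. Fkbp5, another glucocorticoid-induced gene, fell from 86.8 ± 19.8 to 28.4 ± 0.819 CPM (−1.61, adjusted p = 0.000587). Noct, the deadenylase-like gene nocturnin, fell from 10.8 ± 0.271 to 2.96 ± 0.308 CPM (−1.87, adjusted p = 0.000123). Tsc22d3, a glucocorticoid-induced gene too, was at 51.4 ± 2.67 and 51.5 ± 1.20 CPM and did not pass (adjusted p = 0.994), but it was called lower with the GC trend removed (−0.55, adjusted p = 0.0102). Nampt, the NAD salvage enzyme, fell by 1.44 on the log2 scale and was called higher, at 0.49, with that trend removed. Wee1, a mitotic inhibitor driven by E-boxes, was at 0.03 (adjusted p = 0.944).

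**Figure D4:**
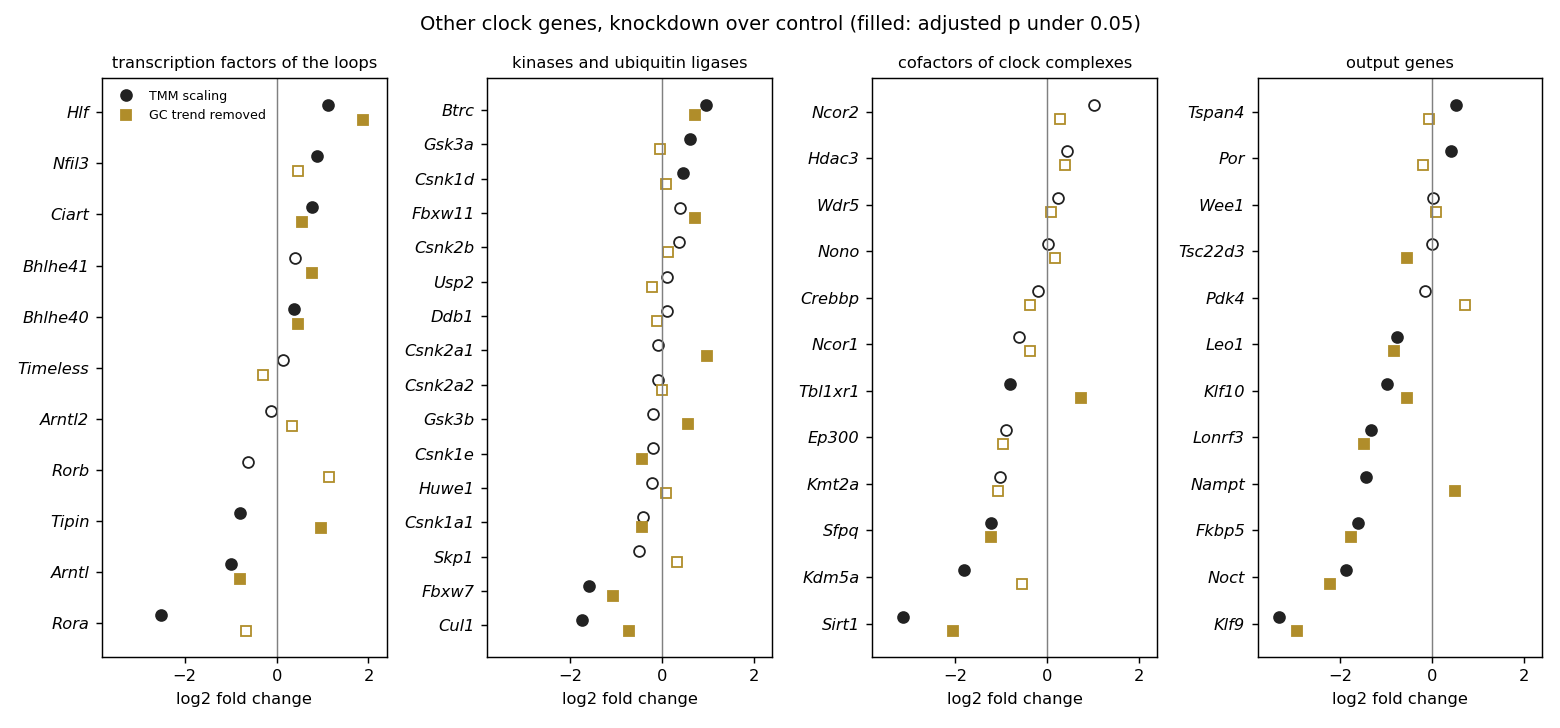
Log2 fold change (knockdown over control) of tested genes from the 4 other clock lists, under TMM scaling (circles) and with the GC trend removed (squares), filled where the adjusted p is under 0.05. Klf9, Sirt1 and Noct are among the genes below −1 in both fits. Nampt, Tipin and Tbl1xr1 are among those that cross 0, and are called in opposite directions by the fits.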

How the data were processed

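The authors deposited raw counts per gene for 6 libraries, with whole-number values, and a table of FPKM (scaled to transcript length and library size, with 2 decimals). Per the submitters' processing notes, HISAT2, MultiQC and the build GRCm39 were used, with no role or version. The counting tool and its strand setting: not given in the sources used here. Members were picked by symbol. Members, gene lists and tests were chosen with earlier results of these data known.

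The test was that of edgeR 4.0.16 (R 4.3.3) on counts: filterByExpr, TMM factors, a robust quasi-likelihood fit of group alone, two-sided, adjusted over 13067 genes. CPM used TMM-scaled totals. SE is the log2 fold change over the square root of F. To remove the GC trend, each library's deviation in log2 CPM (prior count 2) from the mean of libraries was fitted by loess (span 0.3, degree 1) on the GC content of the GENCODE M21 transcript with the longest coding part, and served as an offset. Offsets on the mean GC content of coding transcripts, and on GC content, adenine content and length, were added after seeing the data. Other settings were DESeq2 1.42.0, limma 3.58.1 (voom, and log2 of FPKM plus 1 or 0.1), other scalings and filters, a replicate block and each library left out. By rule the text could name any member, Riok3, any gene of the other clock lists and genes whose exons overlap a member's; which of them to describe was decided with their values seen. Scripts were tested on simulated data. Some genes of the other clock lists, though counted in them, are not reported here by name.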

Additional observations from a re-analysis of the deposited data

How the results depend on the processing

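Nr1d2 was called lower under all 23 alternatives. Of 225 member values under alternatives, 31 turned sign (3 of them past the threshold, for Dbp and Tef), 7 lost a call and 35 gained one with the same sign. Called members numbered 6 with limma-voom, 5 with upper-quartile factors, library totals alone or unfiltered log2(FPKM + 1), 5 with GC content and length removed, 6 with adenine content too, and 9 with the GC trend and control replicate 2 both left out; leaving out 1 library gave 2 to 7, the most without control replicate 2. Other clock genes called numbered 44 of 53 with limma-voom, where 72.5% of all genes were called. With the GC trend and control replicate 2 left out they numbered 44 of 54, where 61.5% of all genes were called. They numbered 22 to 44 with 1 library left out, the most again without control replicate 2. The share of all genes in those fits was 32.4 to 71.6%. All genes called numbered 9477 with limma-voom, 4118 with the GC trend removed, 4139 with mean GC content, 3102 with the GC trend and a replicate block, and 4340 to 9592 with 1 library left out, the most likewise. Share of higher calls among all was 3771 of 6709 with upper-quartile factors and 4280 of 7094 with library totals, against 2758 of 6266.

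Sign changes were as follows. Per1 was at 0.0082 on log2(FPKM + 1), filtered or not, and 0.011 on log2(FPKM + 0.1). Per2 was at 0.23 with upper-quartile factors and with library totals, 0.013 unfiltered, 0.12 on unfiltered log2(FPKM + 1), 0.15 with the replicate block, and from −0.36 to 0.52 with 1 library left out. Cry1 was at −0.12 with GC content, adenine and length removed. Cry2 was at 0.087 with upper-quartile factors, 0.12 with library totals, 0.12 and 0.17 on log2(FPKM + 1) and log2(FPKM + 0.1), and from −0.28 to 0.026 with 1 library left out. Dbp was at −0.53 with the GC trend removed, −0.48 with length too, −0.49 with the block added, −0.26 without control replicate 2, −0.50 with mean GC content and −0.49 with adenine and length; it was from −0.040 to 0.48 with 1 library left out. Tef was, in the same order of GC settings, at −0.17, −0.27, −0.17, −0.21, −0.32 and −0.40, past the threshold in the fourth and last. The cause of these changes was not tested.

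Deviations of same-numbered libraries from their group means had correlations of −0.08, 0.04 and 0.05. With 3 libraries per group these values cannot decide whether same-numbered libraries shared a culture or a preparation. The replicate block gave 5615 calls over all genes (43%), 23 of 53 other clock genes and the same 3 members. With the GC trend removed it gave 4 members and 20 of 53 other clock genes, where 23.8% of all genes were called. Counts of 40 to 199 limit Per2 and Per3.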
